A study of Mus musculus with 3 samples.

Results

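The cytochrome P450 genes are described here in DNase-seq peak and hotspot lists from MEL cells, a murine erythroleukaemia line blocked at an early red cell precursor stage. A gene was a member when its symbol in the GENCODE annotation of mm10 was Cyp followed by a number, a letter and a number, and when it was protein-coding. The rule took 98 of 21938 protein-coding genes on chromosomes 1 to 19, X and Y, counting symbols with a further closing letter such as Cyp3a41a, and it used no measured value. Without those symbols 93 genes are left. A member was called when a peak or a hotspot lay within 1000 bp of any of its annotated transcript starts, and such a peak is a promoter peak below.

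All 3 libraries came from immortalized MEL cells exposed to zinc dichloride for 24 hours, at a dose the labels give as 125 in a unit whose prefix is unreadable. Biological replicate 1 is 2 technical libraries and biological replicate 2 is 1 library. No untreated library was analysed here, so nothing below measures an effect of zinc, and MEL is a leukaemic line rather than normal erythroid tissue. Each biological replicate has 1 peak list, so values are printed for one list and then the other, with no error and no test.

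Cytochrome P450 enzymes hold a haem bound through a cysteine and use it to insert an oxygen atom into drugs, fatty acids, sterols, steroid hormones and vitamins. Those of the endoplasmic reticulum receive electrons from the reductase Por, helped by cytochrome b5, and those of mitochondria from the ferredoxin Fdx1 and its reductase Fdxr. They are best known in liver, adrenal gland and gonad. Families 2, 3 and 4 lie largely in tandem clusters of related genes, whereas most genes of sterol, steroid and vitamin metabolism stand alone. Red cell precursors also make haem in quantity, mainly for haemoglobin.

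The peaks on which the account of single members turns were read from the mm10 (GRCm38) sequence as RefSeq holds it, 5′ to 3′ on the strand of the gene. Capitals mark every match on either strand to 1 of 5 short motifs. GCGTG is the core bound by the dioxin receptor with Arnt, GATAA is the GATA factor site, GGGCGG is the GC box, TATAAA is the TATA box, and AGGTCA is the nuclear receptor site. The first 4 sequences are promoter peaks of the members with the highest scores in biological replicate 2. Cyp4f13, a fatty acid hydroxylase gene, has its peak at chr17:32947516-32947665 (minus strand), upstream of the start. Cyp20a1, whose substrate is not settled, has it at chr1:60343576-60343725 (plus strand), in an intron. Cyp27a1, the mitochondrial sterol hydroxylase of bile acid synthesis, has it at chr1:74712856-74713005 (plus strand), upstream. Cyp4f18, a leukotriene B4 hydroxylase of neutrophils, has it at chr8:72008496-72008645 (minus strand), in an intron. A GATAA match on the other strand of Cyp4f13 and a GC box in Cyp20a1 are the only motif matches in these 4 sequences.
Cyp4f13: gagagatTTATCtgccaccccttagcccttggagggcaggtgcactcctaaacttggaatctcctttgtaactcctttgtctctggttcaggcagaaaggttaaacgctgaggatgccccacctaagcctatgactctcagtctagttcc
Cyp20a1: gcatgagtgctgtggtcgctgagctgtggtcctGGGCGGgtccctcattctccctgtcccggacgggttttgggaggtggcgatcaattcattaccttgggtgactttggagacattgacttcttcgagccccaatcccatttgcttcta
Cyp27a1: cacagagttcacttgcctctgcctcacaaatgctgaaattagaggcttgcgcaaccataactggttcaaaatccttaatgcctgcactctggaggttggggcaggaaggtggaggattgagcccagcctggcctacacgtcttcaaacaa
Cyp4f18: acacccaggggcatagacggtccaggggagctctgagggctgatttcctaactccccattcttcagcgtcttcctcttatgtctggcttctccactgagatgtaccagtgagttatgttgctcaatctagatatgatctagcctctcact

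The next sequence is the highest-scoring peak of Cyp1a1, the classic dioxin-inducible oxidase of aromatic hydrocarbons, in biological replicate 1. It lies at chr9:57688216-57688365 (plus strand), in an intron, and holds no match to any of the 5 motifs, so no base is in capitals.
Cyp1a1: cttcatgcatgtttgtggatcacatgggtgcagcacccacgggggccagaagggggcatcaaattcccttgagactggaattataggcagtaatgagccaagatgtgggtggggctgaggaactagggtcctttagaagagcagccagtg

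The last 3 sequences belong to the only member promoter peaks that had exactly the same interval in both lists, a set chosen after the values were seen. The Cyp4f16 peak at chr17:32536436-32536585 (plus strand) and the Cyp2u1 peak at chr3:131303156-131303305 (minus strand) cross the outermost start of their genes. Only the 122 and 78 bases upstream of that start are printed. The Cyp17a1 peak at chr19:46670776-46670925 (minus strand) lies in an intron and is whole. Each of the 3 holds a GC box. Cyp17a1 also holds a GATAA match, and the printed stretch of Cyp2u1 a GCGTG match on the other strand.
Cyp4f16: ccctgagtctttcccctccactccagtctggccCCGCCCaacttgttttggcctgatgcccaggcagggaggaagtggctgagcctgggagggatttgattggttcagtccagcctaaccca
Cyp17a1: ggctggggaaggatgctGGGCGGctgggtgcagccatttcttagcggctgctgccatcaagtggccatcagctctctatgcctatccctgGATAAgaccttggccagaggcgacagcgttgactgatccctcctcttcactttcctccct
Cyp2u1: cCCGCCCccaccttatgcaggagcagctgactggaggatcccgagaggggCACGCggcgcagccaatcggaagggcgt

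A smaller share of cytochrome P450 genes than of protein-coding genes at large had a promoter peak in both lists. In biological replicate 1, 30 of the 98 members (30.6%) were called, against 63.6% of all protein-coding genes. In biological replicate 2, 13 members (13.3%) were called, against 49.0% of all genes. All 13 members called in biological replicate 2 were also called in biological replicate 1, which left 17 called in biological replicate 1 alone and 68 in neither. Of all 21938 protein-coding genes, 10731 (48.9%) were called in both lists and 3222 in biological replicate 1 alone. Only 27 were called in biological replicate 2 alone, and 7958 in neither. The nesting of the calls was therefore not particular to the members. Hotspots, the broader stretches enriched in DNase I cuts, gave the same call as peaks for all 98 members in each list. Every member promoter peak (64 and 28) overlapped a hotspot of its own list, so this agreement is largely built in. A promoter hotspot was called for 64.3% and 49.3% of all genes, near the 63.6% and 49.0% with a promoter peak.

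The lists themselves differed in length. Biological replicate 1 held 304049 peaks and 258249 hotspots, and biological replicate 2 held 106591 and 82250. Every peak was 150 bp wide, and median scores were 62 and 30. The score is the authors' own, what it counts is not stated, and it serves here only to rank peaks within a list. Read depth is unknown, so a member without a peak had none called at the depth of that list. Among markers of the cell type, the erythroid regulators Gata1, Klf1 and Tal1 each had promoter peaks in both lists. Of 3 hepatocyte genes, Alb had 1 in biological replicate 1 (score 39), Apoa1 had 1 in biological replicate 2 (score 29), and Ttr had none.

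**Figure D1:**
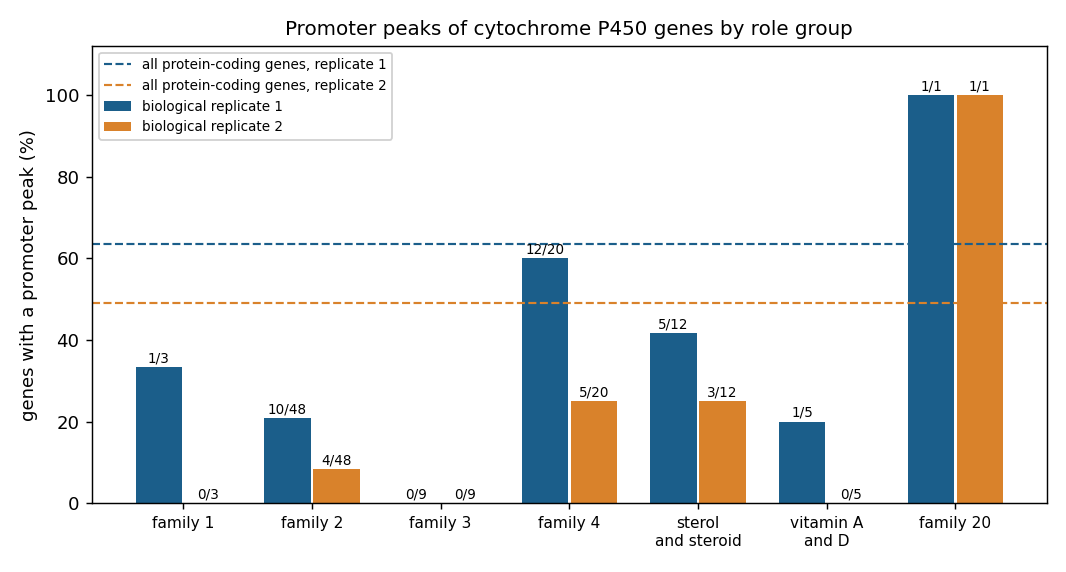
Percentage of genes with a promoter peak in each role group, with 1 bar per biological replicate, the count called over the group size above each bar, and dashed lines at the share of all protein-coding genes. Family 4 stands highest among the groups of over 1 gene in replicate 1, at 12 of 20, and level with the sterol and steroid group in replicate 2, at 5 of 20 and 3 of 12, and family 3 is at 0 of 9 in both lists.

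Members without a promoter peak had their nearest peak a median of 7398 bp away in biological replicate 1 (68 members) and 38203 bp away in biological replicate 2 (85 members). Within 10000 bp, 42 and 21 of them had a peak. Over all 98 members, the nearest peak lay a median of 4782 bp from a member's start in biological replicate 1 and 25024 bp in biological replicate 2, against 62 bp and 1270 bp over all genes. Within 50000 bp of its starts the median member had 8 and 2 peaks, and the median gene 25 and 9. The nearest peak lay outside the window but within 2000 bp for 6 members in biological replicate 1 and 3 in biological replicate 2. From a window of 1000 bp to one of 2000 bp, the share of all genes called rose from 63.6% to 69.9% and from 49% to 52.4%. At the edge of the 1000 bp window in biological replicate 1, Cyp4f15 and Cyp2a12 were inside at 882 and 926 bp. Cyp26b1 and Cyp2b9 were outside at 1088 and 1405 bp. No peak lay anywhere in the gene body of 36 members in biological replicate 1 and 72 in biological replicate 2 (of 98), against 22.7% and 39.6% of all genes.

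**Figure D2:**
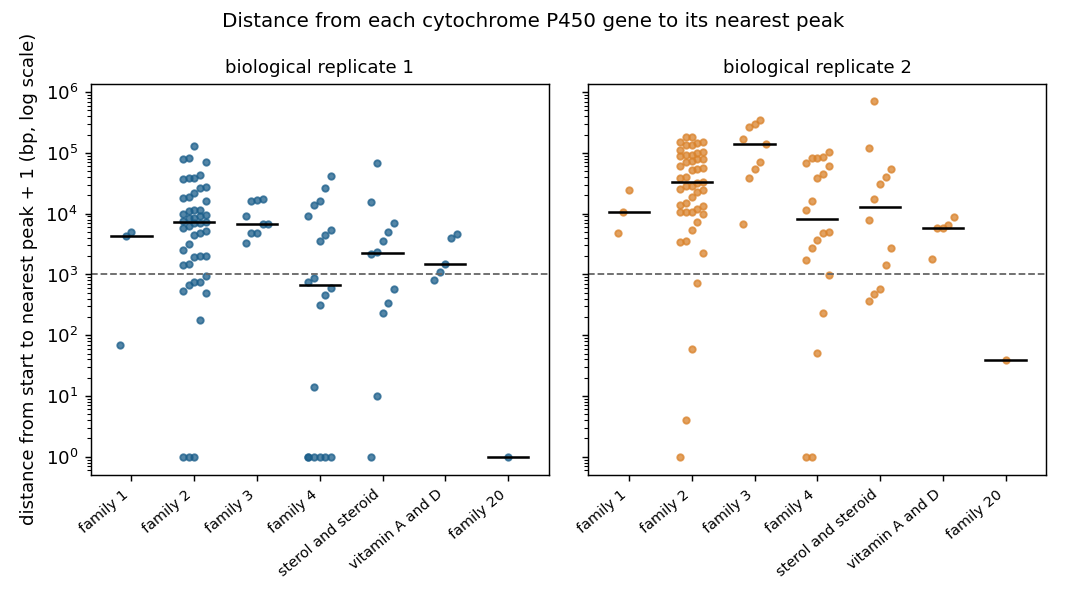
Distance in bp from each member to its nearest peak (log scale, 1 added), with 1 point per gene, role groups along the horizontal axis and 1 panel per biological replicate. Family 3 genes lie between 3346 and 17626 bp in replicate 1 and between 6854 and 344662 bp in replicate 2.

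Called members had lower scores than called genes at large. The highest promoter peak score of the called members had a median of 75 in biological replicate 1 (range 18 to 144) and 38 in biological replicate 2 (range 12 to 55). Over all called protein-coding genes the medians were 135 and 47. Cyp4f13 led both lists with scores of 144 and 55, and the midpoints of its peaks lay at −48 and −188 bp from the outermost start.

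**Figure D3:**
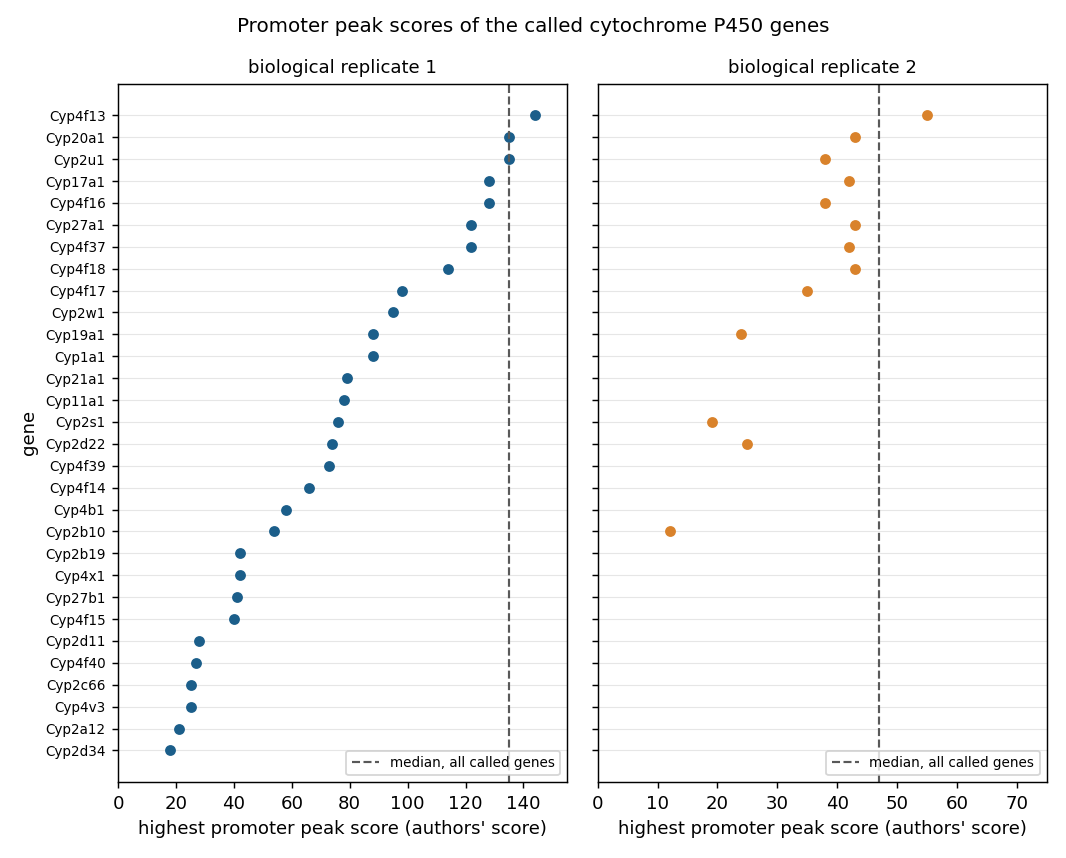
Highest promoter peak score (the authors' score) of each called member, with 1 point per gene, 1 panel per biological replicate, and the median of all called protein-coding genes as a dashed line. Most members lie to the left of that line, and Cyp4f13 is highest in both panels.

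Of the drug and aromatic hydrocarbon oxidases of family 1, only Cyp1a1 was called, and only in biological replicate 1. Its 2 peaks scored 88 and 73, with midpoints 362 and 142 bp downstream of the start, in an intron and in the 5′ UTR. In biological replicate 2 its nearest peak was 10823 bp away. The neighbouring Cyp1a2, a liver oxidase of caffeine and arylamines, had its nearest peak at 4293 bp in biological replicate 1 and 24733 bp in biological replicate 2. Cyp1b1, which oxidizes oestrogens and aromatic hydrocarbons outside the liver, had it at 5075 and 4895 bp. Family 1 was therefore called in 1 of 3 genes and then in 0 of 3.

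Family 2, the largest, carries most of the drug, arachidonate and odorant oxidases. It had 10 of 48 genes (20.8%) called in biological replicate 1 and 4 (8.33%) in biological replicate 2. Cyp2u1, a fatty acid hydroxylase expressed in many tissues, scored 135 and 38. The interval over its start that was identical in the lists scored 135 and 34. An antisense RNA gene starts within 1000 bp of each Cyp2u1 promoter peak, and DNase-seq carries no strand to separate the genes. Cyp2s1, an epithelial enzyme, scored 76 and 19, also beside the start of a non-coding gene. Cyp2d22 scored 74 and 25, with most of its peaks in introns. Cyp2b10, the phenobarbital-inducible oxidase of liver, scored 54 and 12, both from intron peaks near a retained-intron start 19146 bp inside the gene. Near its outermost start it had a peak only in biological replicate 1, with a score of 29.

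The other 6 family 2 genes were called in biological replicate 1 alone. Cyp2w1, known from fetal gut and tumours, had the highest score of them at 95. Cyp2b19, a keratinocyte arachidonate epoxygenase, scored 42, and Cyp2d11 scored 28. Cyp2c66 scored 25, Cyp2a12 scored 21 and Cyp2d34 scored 18, the lowest of any called member. Of the genes without a call, Cyp2b9 and Cyp2f2 came closest in biological replicate 1, with the nearest peak at 1405 and 1504 bp, and had it at 9966 and 10664 bp in biological replicate 2, where Cyp2e1, the ethanol oxidase, was closer at 2215 bp. The subfamilies differed in count. Cyp2c had 1 of 15 genes called and then 0, Cyp2j had 0 of 8 in both lists, and Cyp2d had 3 of 8 and then 1.

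Family 3, here the 9 Cyp3a genes that handle a wide range of drugs and steroids in liver and gut, had no promoter peak in either list. In biological replicate 1 the closest were Cyp3a11, with a peak at 3346 bp, and Cyp3a57, at 4854 bp. In biological replicate 2 these genes had it at 270572 and 38374 bp, and the closest was Cyp3a13, at 6854 bp.

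Family 4, the fatty acid hydroxylases, had the most called genes of any family, at 12 of 20 (60%) and 5 of 20 (25%), against 63.6% and 49.0% of all protein-coding genes. This count split by subfamily. All 9 Cyp4f genes, which hydroxylate leukotrienes and long fatty acids, were called in biological replicate 1, and 5 of them in biological replicate 2. None of the 8 Cyp4a genes, known as Ppara targets in liver and kidney, was called in either list. In biological replicate 1 the nearest peaks to a Cyp4a start were those of Cyp4a32, at 3604 bp, and Cyp4a14, at 4435 bp. In biological replicate 2 Cyp4a32 was again closest, at 3624 bp, and Cyp4a14 was at 83754 bp.

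The Cyp4f genes called in both lists were Cyp4f13 (scores above), Cyp4f16, Cyp4f37, Cyp4f18 and Cyp4f17. Cyp4f16 scored 128 and 38, and the interval over its start that was identical in the lists scored 128 and 32. Cyp4f17 had a peak at its start in both lists, at −20 bp with a score of 87 and at 0 bp with a score of 33. Its highest scores, 98 and 35, were at an internal start. Cyp4f18 scored 114 in biological replicate 1 from a peak at −24 bp from the start. Its score of 43 in biological replicate 2 came from an intron peak that lay 981 bp from the start, just inside the window. That intron peak overlapped a biological replicate 1 peak outside the window by 130 bp, so the promoter peaks behind the calls in the lists were not the same site.

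Cyp4f37 scored 122 and 42, but both values came from near the 3′ end of the gene. Its peaks lay in a coding exon and the 3′ UTR, near a retained-intron start 13393 bp inside the gene. The Cyp4f genes called in biological replicate 1 alone were Cyp4f39, a fatty acid hydroxylase of skin, at 73, Cyp4f14 at 66, Cyp4f15 at 40 and Cyp4f40 at 27. The Cyp4f39 score came from a peak near an internal start 25528 bp inside the gene, and its peak at the outermost start scored 42. The remaining family 4 calls were also in biological replicate 1 alone. Cyp4b1, a lung enzyme, scored 58, Cyp4x1, a brain enzyme, 42, and Cyp4v3, a fatty acid hydroxylase of the retina, 25.

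Among the 12 sterol, bile acid and steroid hormone genes, 5 were called in biological replicate 1 (41.7%) and 3 in biological replicate 2 (25%). Cyp27a1 scored 122 and 43. Its upstream peaks scored 119 and 43, with midpoints at −884 and −644 bp and no overlap. Its intron peaks scored 122 and 29 and overlapped by 90 bp, near a retained-intron start 23235 bp inside the gene. Cyp17a1, which makes the androgen precursors, scored 128 and 42 with 3 and 4 promoter peaks. All 4 of the biological replicate 2 peaks lay near internal retained-intron starts. A 5′ UTR peak near the start of a protein-coding transcript, with a score of 82, was present in biological replicate 1 alone. Cyp19a1, the aromatase that makes oestrogens, scored 88 and 24 at an internal retained-intron start 86036 bp inside the gene. Near its outermost start it had a peak only in biological replicate 1, with a score of 24.

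The 2 steroid genes called in biological replicate 1 alone were Cyp21a1, the adrenal steroid hydroxylase, at 79, and Cyp11a1, which cleaves the cholesterol side chain, at 78. The Cyp11a1 peak behind that score lay upstream, at −461 bp from the start. The other 7 genes of the group were called in neither list. The nearest peaks to Cyp7a1, the rate-limiting enzyme of bile acid synthesis, lay at 15843 and 17483 bp. They lay at 67633 and 705418 bp for Cyp7b1, an oxysterol hydroxylase, at 2211 and 2751 bp for Cyp8b1, which sets cholic acid output, and at 7158 and 30638 bp for Cyp39a1. Cyp46a1, the cholesterol hydroxylase of brain, had them at 3536 and 122216 bp. Cyp11b1 and Cyp11b2, of corticosterone and aldosterone synthesis, had them at 2353 and 54773 bp and at 4918 and 40098 bp.

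Of the 5 vitamin A and D genes, only Cyp27b1, which activates vitamin D, was called, with a score of 41 in biological replicate 1 alone. Cyp24a1, which inactivates vitamin D, had its nearest peaks at 1511 and 6491 bp. The retinoic acid hydroxylases Cyp26a1, Cyp26b1 and Cyp26c1 had theirs at 4711 and 5911 bp, 1088 and 1798 bp, and 4035 and 8696 bp. The vitamin group is sensitive to the window, with 0 genes called at 500 bp and 3 at 2000 bp in biological replicate 1. Cyp20a1, the single gene of family 20, was among the strongest members, with scores of 135 and 43 from peaks at −13 and 327 bp from its start.

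Hotspot values of the members called in biological replicate 2 spread widely. Each hotspot carries a −log10 q value from the authors, with a ceiling of 100. The value given for a member is the highest among its promoter hotspots. Over the whole list of biological replicate 2, 17.1% of single hotspots were at that ceiling. That share is not a measure per gene, and the share of called genes at the ceiling was not computed. At a −log10 q of at least 5, 8 members and 28.8% of all genes kept a promoter hotspot there. Without that limit the values were 13 members and 49.3%. In biological replicate 2 the promoter hotspots of Cyp4f17, Cyp4f16, Cyp4f37, Cyp4f13, Cyp19a1 and Cyp20a1 were at that ceiling. The other 7 members lay between 1.71 for Cyp2s1 and 6 for Cyp17a1. Cyp27a1 was at 5.52, Cyp2d22 at 4.66, Cyp2u1 at 3.38, Cyp4f18 at 3.31 and Cyp2b10 at 2.42. The ranking by score and the ranking by −log10 q differed, since Cyp19a1 was at the ceiling with a score of 24, and Cyp27a1 was far below it with a score of 43.

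Part of the member peaks lay away from the outermost start of the gene. Of 64 distinct promoter peaks of members in biological replicate 1, 34 had their midpoint in an intron and 16 upstream of the gene. In biological replicate 2 these were 13 and 6 of 28. Peaks over 1000 bp from the outermost start numbered 28 of 64 (43.8%) and 9 of 28 (32.1%), beside 35.1% and 23.7% of all promoter peaks. Counting the outermost start alone, 26 and 9 members were called, against 57% and 43.7% of all genes. The 4 members called at internal starts alone were Cyp4f37, Cyp2b19, Cyp2d34 and Cyp27b1 in biological replicate 1 and Cyp17a1, Cyp19a1, Cyp4f37 and Cyp2b10 in biological replicate 2. The number of annotated starts moved with the call. Of 38 members with 1 annotated start, 3 and 1 were called, against 34.2% and 21.2% of such genes at large, and of 60 with more, 27 and 12, against 72% and 57%. Its part in the counts was not tested. Of the member promoter peaks, 18 of 64 (28.1%) in biological replicate 1 and 18 of 28 (64.3%) in biological replicate 2 overlapped a peak of the other list, beside 41.9% and 63.4% for all promoter peaks.

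With a cluster distance of 200000 bp, members in tandem clusters had a smaller share of calls than the others, a difference that was not tested. Genes of the same family within 200000 bp of each other formed 12 clusters that held 75 members, of which 19 (25.3%) and 7 (9.33%) were called. Of the 23 members outside clusters, 11 (47.8%) and 6 (26.1%) were called. The difference depended on the distance set. With a neighbour required within 50000 bp, 11 and 5 of 37 clustered members were called, beside 30 and 13 of all 98 members. Families 2, 3 and 4 together had 22 of 77 (28.6%) and 9 (11.7%), and the 17 sterol, steroid and vitamin genes had 6 (35.3%) and 3 (17.6%). All of these shares lay below those of all genes in both lists.

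Peak density differed widely among the clusters. The chromosomes as a whole held 11.5 and 4.03 peaks per 100 kb, and all cluster spans together 6.15 and 1.44. The Cyp4f39 to Cyp4f15 cluster on chromosome 17 held 55 and 22 peaks in 251 kb, or 21.9 and 8.78 per 100 kb, the densest cluster in each list. With spans extended by 20000 bp on both sides it had 20 and 7.91 and was no longer the densest, since the Cyp1a cluster had 26.9 in biological replicate 1 and the Cyp4f14 to Cyp4f13 cluster 10.9 in biological replicate 2. Without the extension, the Cyp4f14 to Cyp4f13 cluster had 16.5 and 4.72 per 100 kb. At the other end, the Cyp2j cluster on chromosome 4 had 1.26 and 0.314 per 100 kb with 8 and 2 peaks in 637 kb. The Cyp2c cluster on chromosome 19 had 2.46 and 0.254 with 29 and 3 peaks in 1180 kb, and the Cyp3a cluster on chromosome 5 had 4.04 and 0.391 with 31 and 3 peaks in 768 kb.

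**Figure D4:**
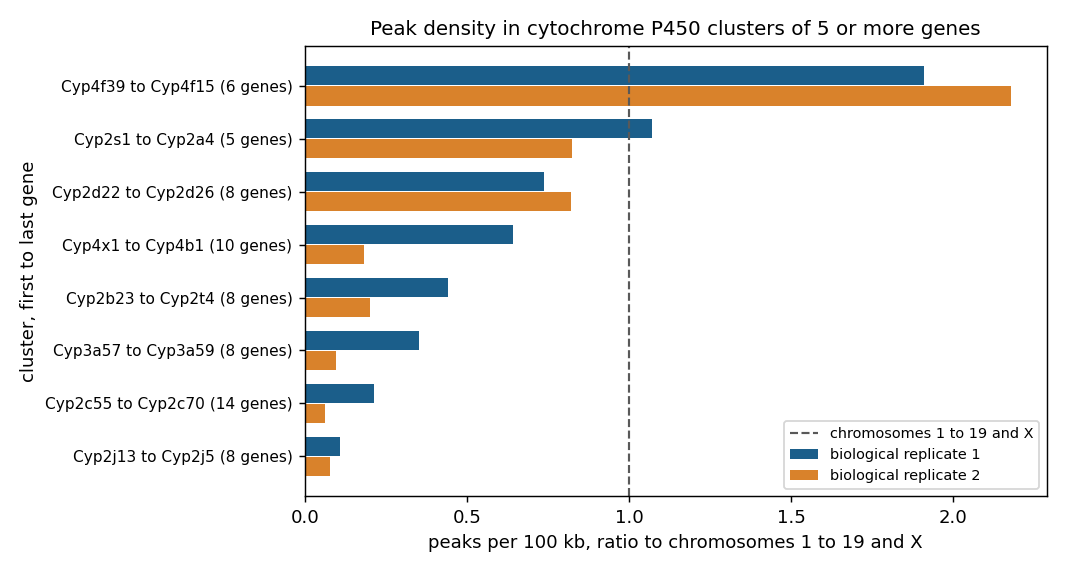
Peak density over the span of each cytochrome P450 cluster of 5 or more genes, as a ratio to chromosomes 1 to 19 and X. There is 1 bar per biological replicate, and the dashed line marks a ratio of 1. The Cyp4f39 to Cyp4f15 cluster reaches ratios of 1.91 and 2.18, and the Cyp2j cluster 0.109 and 0.078.

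Repeat content differed among the clusters without following density throughout. Repeat-masked bases made up 60.6% of the Cyp2c span, 50.6% of the Cyp3a span and 49.1% of the Cyp2j span, against 35.6% and 22.2% of the Cyp4f spans and 34.3% of the chromosomes. The Cyp2s1 to Cyp2a4 cluster had 48.4% at 12.3 peaks per 100 kb in biological replicate 1, and the Cyp11b cluster 16.8% at 4.51. Near-identical copies were frequent as well. Of the 31-base words within 1000 bp of a member's outermost start, a median of 91.3% occurred once in the chromosomes, against 98.4% for every 20th protein-coding gene. In 35 members the share was under 80%, with the lowest in Cyp2c29 (7.51%), Cyp3a41b (9.74%) and Cyp3a41a (10.2%). Of the members called in biological replicate 1, 5 were also under 80%, namely Cyp2d11 (50.5%), Cyp21a1 (65.1%), Cyp4f37 (72.7%), Cyp4f16 (72.8%) and Cyp2a12 (77.5%). Reads near these outermost starts may be shared with copies. The Cyp4f37 peaks lay near a start 13393 bp inside the gene, outside the stretch measured. No source used here says how reads matching several places were handled. Among the 63 members with at least 80%, 25 (39.7%) and 11 (17.5%) were called, against 68.4% and 54.9% of the 956 sampled genes with at least 80%.

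Promoter CpG content also differed. The ratio of observed to expected CpG within 500 bp of the outermost start had a median of 0.151 in members and 0.552 in all genes. It was at least 0.6, a usual mark of CpG islands, in 8 members (8.16%) and in 46% of all genes. Below 0.2, 15 and 4 of 64 members were called (23.4% and 6.25%), against 30% and 14.1% of all genes in that range. Between 0.2 and 0.4 the members had 7 and 4 of 19 called (36.8% and 21.1%), against 50.5% and 28.3%. Between 0.4 and 0.6 they had 5 and 3 of 7 called (71.4% and 42.9%), against 64.8% and 48.7%. In biological replicate 1 this was the only class in which members stood above all genes. The part of CpG content in the calls was not tested, and the classes hold few members.

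Of the 8 members at or above 0.6, 3 and 2 were called, against 84.8% and 74.2% of all genes in that range. Cyp20a1 (0.745) and Cyp2u1 (0.704) were called in both lists and Cyp4v3 (0.692) in biological replicate 1 alone. The 5 called in neither were Cyp46a1 (0.852), Cyp2r1 (0.758), a liver enzyme that activates vitamin D, Cyp26a1 (0.727), Cyp24a1 (0.679) and Cyp39a1 (0.678). The nearest peak to Cyp2r1 lay at 9904 bp in biological replicate 1 and 28207 bp in biological replicate 2.

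**Figure D5:**
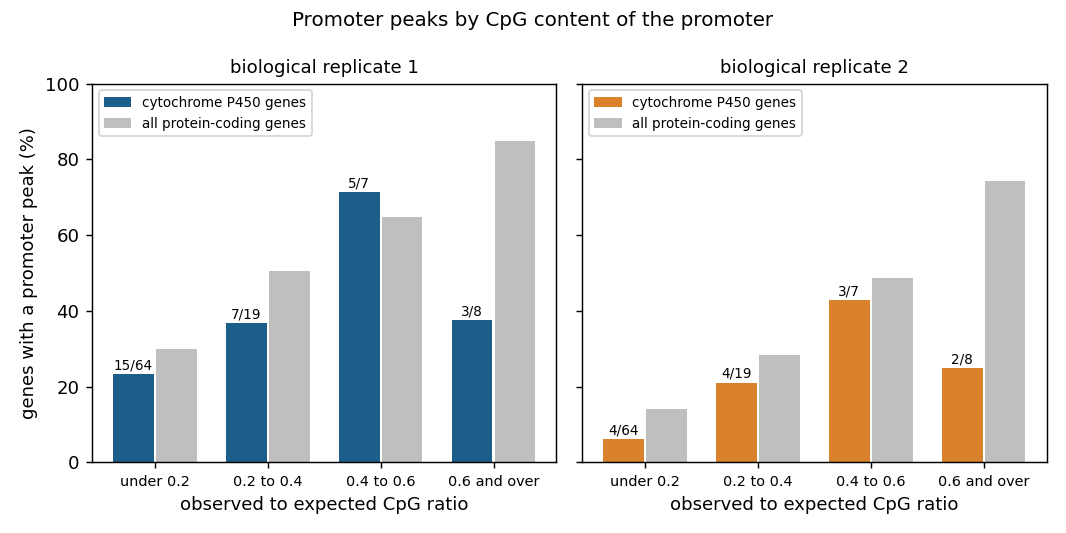
Percentage of genes with a promoter peak by observed to expected CpG ratio within 500 bp of the outermost start, for members (coloured, with counts) and all protein-coding genes (grey), with 1 panel per biological replicate. At a ratio of 0.6 and over, 3 and 2 of 8 members were called, against 84.8% and 74.2% of all genes.

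Short motifs were counted in the promoter peaks of members and set beside those of all promoter peaks. GATAA was found in 17 of 64 member peaks in biological replicate 1 (26.6% against 12.8%) and in 6 of 28 in biological replicate 2 (21.4% against 13.4%). AGGTCA was found in 9 (14.1% against 7.44%) and 2 (7.14% against 7.52%), so the lists differed in direction. GCGTG was found in 6 (9.38% against 20.6%) and 4 (14.3% against 21%). GGGCGG was found in 12 (18.8% against 23.5%) and 7 (25% against 19.7%), and TATAAA in 2 and 1. Both strands were searched, and the peaks compared were not matched for base composition. The median promoter CpG ratio was 0.202 and 0.274 in called members, against 0.681 and 0.722 in all called genes. The part of base composition in the motif counts was not tested. A match is a run of letters and not a bound site, and overlapping peaks of 1 gene share bases.

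Of 24 genes listed as electron donors and regulators, 21 and 18 were called, against 63.6% and 49.0% of all protein-coding genes. All 7 genes listed as electron donors had a promoter peak in both lists. They were Por, Cyb5a, Cyb5b, Cyb5r3, Fdx1 and Fdxr, with Pgrmc1, a P450-binding protein, counted among them. Por scored 143 and 57, Fdx1 108 and 30, and Fdxr 143 and 59. Of 4 other P450 genes whose symbols the rule leaves out, Cyp51, the sterol demethylase of cholesterol synthesis, scored 138 and 43 and Tbxas1, the thromboxane synthase, 139 and 65. Cyp2ab1 scored 106 in biological replicate 1 alone, and the prostacyclin synthase Ptgis was not called. Of 17 regulators of P450 genes, 14 and 11 were called. Arnt, the partner of the dioxin receptor, scored 150 and 80, whereas the receptor Ahr itself scored 23 in biological replicate 1 and was not called in biological replicate 2. Among regulators of liver metabolism, Ppara scored 131 and 42, Nr0b2 102 and 20, Nr5a2 79 and 17 and Nr1h4 63 and 20, and the xenobiotic receptor Nr1i2 scored 50 in biological replicate 1 alone. The liver regulator Hnf4a, the xenobiotic receptor Nr1i3 and the adrenal and gonadal regulator Nr5a1 had no promoter peak in either list.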

How the data were processed

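DNase-seq of zinc-treated MEL cells was analysed from deposited peak and hotspot lists aligned to mm10, per the labels. The whole-series lists derive from an alignment that the deposited text records of both biological replicate 1 libraries name and that of biological replicate 2 does not, so they were read as biological replicate 1. The peak score is the authors' own, deposited as a whole number of unstated meaning. The authors also deposited a −log10 q value per hotspot. No source used here gives the aligner, caller, filters or read depth, so no interval from counts was possible.

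All overlaps were computed with Python 3.11.15, numpy 2.4.6 and pandas 2.3.3 on GENCODE release M21, and 31-base words were counted with numba 0.67.0. Repeated intervals (59 and 31) were counted once, and all 84 comparisons of a list with a chromosome length lay within the reference. Overlap counting was tested on simulated data. The members, lists and motifs were chosen with earlier results of these data known. Every called member was named. Of those called in neither list, all outside families 2, 3 and 4 were named, and in each of those families the pair with the nearest peak. Cyp2e1 and Cyp3a13 were named for their distances, and Cyp2r1, Cyp2c29, Cyp3a41a and Cyp3a41b for their sequence content, after these were seen. 1 gene of the regulator list is not reported here. Cell type markers were added after the lists were seen. Alternatives changed the window (500 or 2000 bp), the starts, the score and q thresholds, the list length, the overlap and the cluster distance. No test was made, because genes are not replicates and there is 1 group.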

Additional observations from a re-analysis of the deposited data

How the results depend on the processing

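Each biological replicate has 1 list, so leaving out a replicate gives the other list, already shown beside it, and no paired analysis was possible because there is 1 group. Of 27 alternative values of the main counts and densities, 21 stayed within 1.5 times the value reported and 6 moved further. With the highest-scoring 50% of peaks, 18 members were called in biological replicate 1 (57.1% of all genes), and with its list shortened to the length of the other, 12 (54.6%). At a −log10 q of at least 5, promoter hotspots called 8 members in biological replicate 2 (28.8% of all genes). Requiring a neighbour within 50000 bp left 37 clustered members, 11 of them called in biological replicate 1 and 5 in biological replicate 2. At that distance the smaller share of calls in clusters was not kept. Requiring an overlap of at least 50%, 11 of 64 member promoter peaks in biological replicate 1 (all genes 29.3%) and 11 of 28 in biological replicate 2 (42.9%) were shared. Extending the cluster spans by 20000 bp gave 7.25 and 1.8 peaks per 100 kb over all clusters, and moved the Cyp11b cluster from 4.51 to 20.9 in biological replicate 1 and the Cyp26c1 to Cyp26a1 cluster from 0 to 7.15 in biological replicate 2. Of 115 values for single groups and clusters, 94 stayed within 1.5 times and 21 moved further. At equal list length, family 2 had 2 genes called in biological replicate 1 and family 4 had 5, and with the outermost start alone, 1 sterol and steroid gene was called in biological replicate 2. Unknown read depth limits what the absence of a peak can show.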

Other observations

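Pseudogenes of the cytochrome P450 families were not members. Of 30 such records, 4 had a peak within 1000 bp of a start in biological replicate 1 (13.3%) and 1 in biological replicate 2 (3.33%), beside 14.9% and 4.3% of all 13523 annotated pseudogenes. The record called in both lists was Cyp4f41-ps, a transcribed pseudogene at 32950961 to 32965718 on chromosome 17 (mm10), next to Cyp4f13. It had 3 peaks with a highest score of 144 in biological replicate 1 and 4 with a highest score of 59 in biological replicate 2, level with the highest of the 98 members in biological replicate 1 and above it (55) in biological replicate 2. Cyp4b1-ps2 (score 72), Cyp21a2-ps (43) and Cyp2j15-ps (17) were called in biological replicate 1 alone. Cyp21a2-ps is a near copy of Cyp21a1, and reads of the pair may not be separable.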
